A study of Mus musculus with 4 samples.

Results

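Decorin (Dcn) and 8 other genes of the fibroblast extracellular matrix were followed through single cells sorted from mouse aorta, to ask whether Dcn transcripts in endothelial cells come together with the other genes that mark fibroblasts. The 9 genes, of 18767 in the table, are Dcn, Lum, Bgn, Col1a1, Col1a2, Col3a1, Col6a3, Pdgfra and Sfrp2. They were picked by name with their levels in these cells already known, so those levels are given below as a description. A cell was taken as endothelial (EC) when it had more than 1200 detected genes and at least 3 counts of Pecam1, Cdh5 and Vwf together, which 820 of the 991 deposited cells did.

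The cells came from aortas of male C57BL/6J mice aged 1.5 to 3 months, dissected from the root to the iliac artery, stripped of adventitia, digested, and sorted as CD31+, CD45- and TO-PRO-3- cells into plates. The study compared 2 genotypes, with 2 libraries each. Jag1 ECKO mice were Jag1 fl/fl with CDH5 CreERT2/+, a recombinase driven by an endothelial promoter. The Jag1 ECWT controls were Jag1 fl/fl Cdh5 +/+, without Cre, and mice of both genotypes received tamoxifen at 2 mg per day for 5 days. How many animals entered each library is not given in the sources used here, so p-values measure the spread between libraries. The gate held 199 and 236 cells in the libraries labelled Jag1 ECKO replicates 1 and 2, and 140 and 245 cells in those labelled Jag1 ECWT replicates 1 and 2, with a median of 4155 to 6517.5 counts per cell. Endothelial genes that the gate did not use were present in most of these cells, Tie1 in 783 of 820 and Egfl7 in 764. Jag1 itself went against the labels. It stood at 164 and 70.8 CPM (its counts scaled to one common total per library) in the libraries labelled Jag1 ECKO and at 32.6 and 25.6 CPM in those labelled Jag1 ECWT, and whether its counted 3′ end lies outside the deleted part was not checked. Groups are therefore named by their label only.

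Decorin, lumican (Lum) and biglycan (Bgn) are small leucine-rich proteoglycans, secreted proteins that bind collagen fibrils and set their spacing. Col1a1 and Col1a2 encode the chains of type I collagen, Col3a1 encodes type III collagen, and Col6a3 encodes a chain of the type VI microfibrils around cells. Pdgfra is a receptor for platelet-derived growth factors and a surface marker of fibroblasts, and Sfrp2 is a secreted Frizzled-related protein that binds WNT ligands. In the artery wall these genes are known chiefly from adventitial fibroblasts, and Bgn and the collagens from vascular smooth muscle cells (VSMC) as well.

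Dcn lies on the plus strand at chr10:97479609-97518143 (GRCm38, GENCODE, 8 exons in its principal transcript), and Lum follows it on the same strand at chr10:97565128-97572703. The other 7 genes lie on chromosomes X (Bgn), 11 (Col1a1), 6 (Col1a2), 1 (Col3a1 and Col6a3), 5 (Pdgfra) and 3 (Sfrp2). For 6 of the 9 genes a promoter was matched by symbol in a RefSeq table of GRCm38.p6. The 100 bases before the start are shown for the members called higher below both over all gate cells and over those with 3 or more Cdh5 and Vwf counts (Sfrp2, Col1a2 and Col3a1), and for Bgn, which was tested in both and passed in neither, taken from the RefSeq start and each read 5′ to 3′ along the gene with CG dinucleotides in capitals. The RefSeq start of Col1a2 lies inside the gene as GENCODE gives it, which begins at position 4504814, so its window is not upstream of that start.
Sfrp2, chr3:83766221-83766320, plus strand: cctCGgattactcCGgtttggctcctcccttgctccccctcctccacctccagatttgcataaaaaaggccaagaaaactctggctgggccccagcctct
Col1a2, chr6:4505518-4505617, plus strand: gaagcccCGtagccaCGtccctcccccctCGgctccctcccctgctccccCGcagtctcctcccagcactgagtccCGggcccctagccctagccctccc
Col3a1, chr1:45311438-45311537, plus strand: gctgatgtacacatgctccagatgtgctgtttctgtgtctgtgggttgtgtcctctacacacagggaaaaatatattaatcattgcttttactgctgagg
Bgn, chrX:73483501-73483600, plus strand: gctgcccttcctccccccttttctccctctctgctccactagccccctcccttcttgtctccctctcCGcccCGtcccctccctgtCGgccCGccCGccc
The windows hold 2, 5, 0 and 5 CG dinucleotides in that order, and the median over all 32851 windows of this length is 3, with at least 1 in 79.3% of them. The letters TATAAA (found on either strand in 5.56% of all windows) and CCAAT (18.9%) occur in none of these 4 windows.

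Cells without the endothelial counts were almost missing from the sort. Of 824 cells with more than 1200 genes, 4 had fewer than 3 endothelial counts, 3 of them in the library labelled Jag1 ECKO replicate 1 and 1 in that labelled Jag1 ECWT replicate 2. None had a count of 0. All 4 carried VSMC transcripts, with 206 to 442 counts of Acta2 (smooth muscle actin) and 47 to 180 of Myh11 (smooth muscle myosin). Their Dcn counts were 0, 0, 1 and 1, and Lum, Pdgfra and Sfrp2 were at 0 in every one. Collagen was present, with Col1a1 at 22, 8, 9 and 0 counts, Col1a2 at 37, 9, 12 and 4, Col3a1 at 14, 22, 20 and 4, and Col6a3 at 4, 2, 2 and 0, and Bgn stood at 52, 12, 56 and 15. In the 3 cells of the library labelled Jag1 ECKO replicate 1, Col1a1 reached 1099 CPM (its counts scaled as above). The comparison set is thus led by smooth muscle genes and holds no cell with Lum, Pdgfra or Sfrp2. These cells held 6298 to 15495 counts each. Free RNA was not measured, and its part in cells with 1 or 2 Dcn counts was not tested. The 2 cells just inside the gate, with 3 endothelial counts, held 66 Dcn and 4 Lum counts in all, and the 2 just outside it, with 2 endothelial counts, held 1 and 0.

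Among the endothelial cells, Bgn was found in nearly every cell and Dcn in fewer than 1 in 2. Bgn reached 4044, 5118, 4252 and 4551 CPM in the 4 libraries (the libraries labelled Jag1 ECKO replicates 1 and 2, then Jag1 ECWT replicates 1 and 2, an order kept throughout), with a count in 97.1% to 100% of cells per library. Dcn reached 499, 1193, 1021 and 741 CPM. A Dcn count was present in 32.2%, 54.2%, 32.9% and 50.2% of cells, and in 361 of 820 in all, which is 44.0% (95% exact binomial interval 40.6% to 47.5%, for counting error only). Most of these cells held little of it, since 172 had 1 or 2 counts, 101 had 3 to 9 and 88 had 10 or more.

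Lum, Col1a1, Pdgfra and Col6a3 were rare in the gate. Lum was seen in 55 of 820 cells and stood at 29.6, 142, 106 and 17.5 CPM. Col1a1 was seen in 47 cells, at 35.7, 66.3, 29.1 and 19.5 CPM, and Pdgfra in 27, at 10.2, 7.87, 3.49 and 8.08 CPM. Col6a3 was seen in 65 cells, with 18.2 to 34.9 CPM over the libraries. The mean of Lum over the libraries was 73.8 ± 60.1 CPM (SD, n = 4), and the library labelled Jag1 ECKO replicate 2 was the highest for Dcn, Lum, Col1a1 and Col6a3. Col1a1 and Col6a3 were also found where smooth muscle genes were. In the 18 gate cells with 3 or more counts of Myh11 and Cnn1 (calponin, a smooth muscle protein), 6 in each of 3 libraries and none in the library labelled Jag1 ECWT replicate 1, Col1a1 stood at 294, 296 and 335 CPM and Col6a3 at 146.8, 176 and 105 CPM, beside 7043 to 12474 CPM of Acta2. These cells held 60 of the 207 Col1a1 counts of the gate and 30 of the 127 of Col6a3, but 3 of the 399 of Lum.

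The remaining members were more widely spread. Col1a2 was seen in 519 of 820 cells at 388, 466, 297 and 513 CPM, and Col3a1 in 225 cells at 142, 151, 62.8 and 191 CPM. Sfrp2 was seen in 155 cells at 266, 70.3, 155 and 226 CPM, lowest in the library in which Dcn and Lum were highest. The 3 richest cells held 28.9% of all Sfrp2 counts, and the richest, with 148 Sfrp2 counts, also held 47 Dcn counts and 29 counts of Cdh5 and Vwf but no Lum, Col1a1 or Pdgfra.

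The gate cells did not all carry the same endothelial genes. Pecam1 (CD31) was used for the sort and can admit a cell alone, whereas Cdh5 (the endothelial cadherin) and Vwf (von Willebrand factor) were not sorted for. Of the 820 cells, 778 had at least 3 counts of Cdh5 and Vwf together and 42 had fewer (10, 13, 9 and 10 per library), although these 42 still held 2490 to 3992 CPM of Pecam1 over the libraries. A Dcn count was about as frequent in the 42 (18 cells, 42.9%) as in the 778 (343 cells, 44.1%), but the 42 held 42.4% of its Dcn counts, 70.2% of its Lum and 60.9% of its Col1a1, and 4.90% of its Bgn and 7.25% of its Sfrp2. Their depth was lower, with a median of 3667.5 counts per cell against 5340.5 in the 778.

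**Figure D1:**
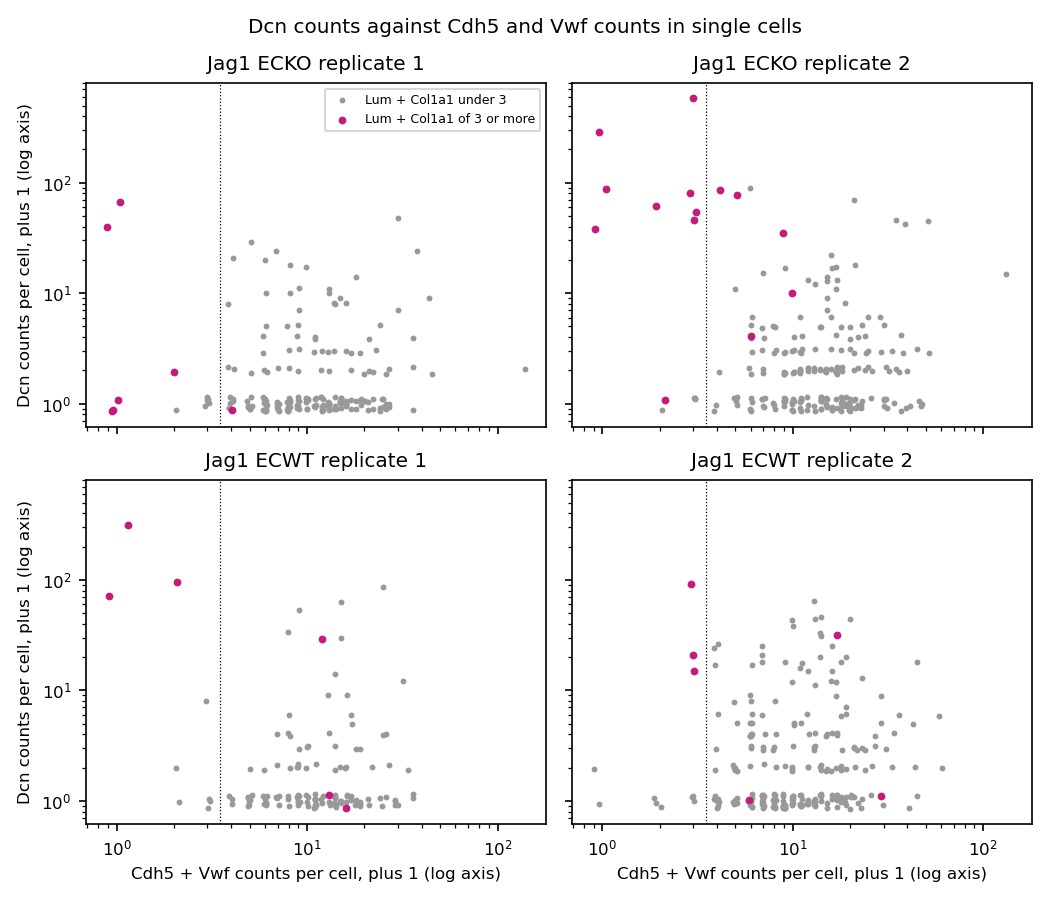
Dcn counts per cell against the summed Cdh5 and Vwf counts, each plus 1 on a log axis and with a small random shift so that points do not overlap, for all 824 cells with more than 1200 genes in the 4 libraries. Pink points are cells with 3 or more counts of Lum and Col1a1, and the dotted line marks 3 counts of Cdh5 and Vwf. The cells richest in Dcn (582, 315 and 285 counts) lie left of the line and are pink, and a second set of Dcn-bearing cells right of it is mostly grey.

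Among the 42 cells with little Cdh5 and Vwf, Dcn and Lum were high together in 16. These 16 held 1938 of the 1946 Dcn counts and all 280 Lum counts of the 42, so the levels of both genes come from them. Over all 42 cells Dcn stood at 2641, 10347, 13155 and 3539 CPM, against 408, 538, 473 and 673 CPM in the 778 cells. Lum stood at 629, 1441, 1914 and 368 CPM against 4.25, 49.4, 24.3 and 8.97 CPM, and Col1a1 at 629, 666, 431 and 170 CPM against 10.6, 23.5, 10.9 and 15.9 CPM. These ranges do not overlap, and neither do those of Col1a2 (651 to 2275 CPM against 279 to 509.9 CPM) and Col6a3 (56.6 to 202 CPM against 13.8 to 22.9 CPM). Those of Bgn (3100 to 6041 CPM against 4010 to 5053 CPM), Col3a1 (135 to 902 CPM against 59.6 to 190.4 CPM), Pdgfra (0 to 126 CPM against 1.22 to 8.28 CPM) and Sfrp2 (126 to 809 CPM against 66.3 to 265 CPM) do. How many of all genes separate in this way was not counted, and the 42 cells are few, so this is a description. Smooth muscle markers moved with this split in 3 of the 4 libraries. Acta2 stood at 5961, 3842, 0 and 1925 CPM in the 42 cells against 621, 607, 198 and 376 CPM in the 778, and Myh11 at 1409, 1104, 0 and 368 CPM against 149.9, 138, 1.22 and 90.4 CPM. Single cells held most of these counts, 225 of 237 and 432 of 456 for Acta2 in the first 2 libraries. In the library labelled Jag1 ECWT replicate 1 both markers were at 0 in these cells, and Dcn, Lum and Col1a1 were high there too. The 3 cells with the most Dcn in the gate, with 582, 315 and 285 counts, carried 35, 44 and 50 Lum counts and 66, 33 and 43 Pecam1 counts, but only 2, 0 and 0 counts of Cdh5 and Vwf.

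**Figure D2:**
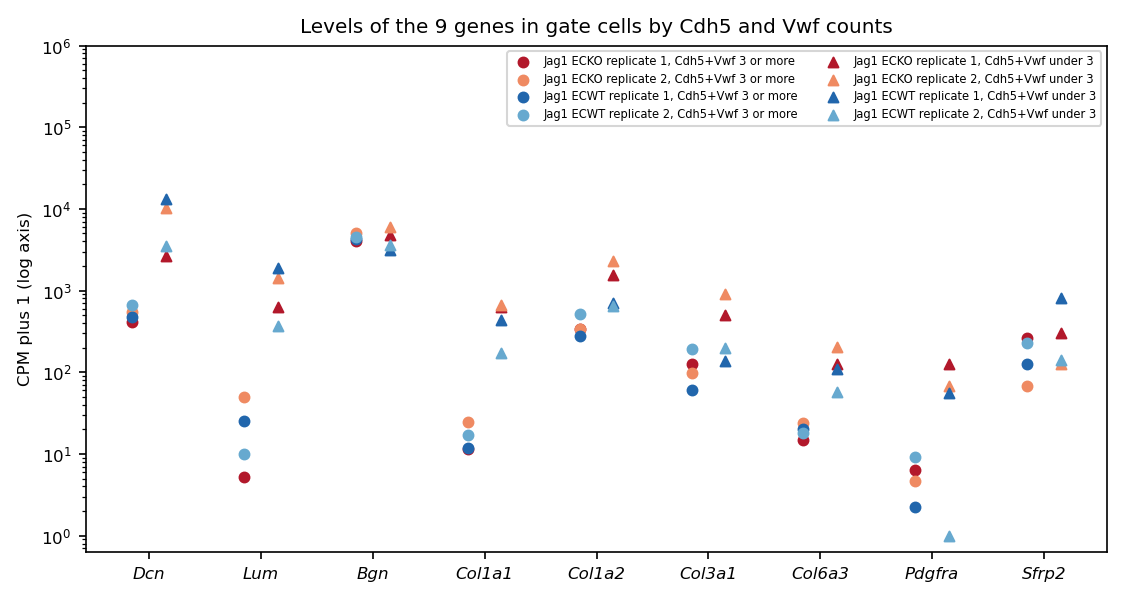
CPM plus 1 (log axis) of the 9 genes in each library, in the gate cells with 3 or more Cdh5 and Vwf counts (circles, 778 cells) and in those with fewer (triangles, 42 cells). The points of Dcn, Lum, Col1a1, Col1a2 and Col6a3 lie apart in the 2 sets, while those of Bgn, Col3a1, Pdgfra and Sfrp2 overlap. How many of all genes lie apart in this way was not counted.

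The amounts of the other members for a given amount of Dcn were then compared. Per 100 Dcn counts, the cells with little Cdh5 and Vwf held 23.8, 13.9, 14.5 and 10.4 Lum counts, and the others 1.04, 9.17, 5.14 and 1.33. Lum and Col1a1 (23.8, 6.43, 3.28 and 4.8 against 2.60, 4.36, 2.31 and 2.36) were higher in 4 of 4 libraries. Dcn, the denominator, was itself far higher in the first set, and Bgn, Col1a2, Col3a1 and Sfrp2 were each lower per 100 Dcn counts in 4 of 4 libraries. Bgn stood at 183, 58.4, 23.6 and 100.8 against 983, 938, 909.8 and 680, and Sfrp2 at 11.4, 1.22, 6.15 and 4 against 64.8, 12.3, 26.5 and 33.9. Col6a3 was higher in 1 library and lower in 3 (4.76, 1.95, 0.820 and 1.60 against 3.39, 4.25, 4.11 and 2.56).

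Dcn-bearing cells could thus be followed as 2 sets among the 88 cells with 10 or more Dcn counts, a description set up after these values were seen. In 16 of them, with Cdh5 and Vwf under 3, Lum was present in 16 of 16, Col1a1 in 10, Col6a3 in 11, Pdgfra in 7 and Sfrp2 in 4. In the other 72, Lum was present in 13, Col1a1 in 5, Col6a3 in 10, Pdgfra in 2 and Sfrp2 in 34. The 16 cells came from all 4 libraries (2, 8, 3 and 3). They also held Prg4 (lubricin, 171 counts in 8 cells, 119 of them in 1 cell), Gsn (gelsolin, an actin-severing protein, 413 counts in 15 cells), Dpt (dermatopontin) and Col14a1 (41 counts each), and the endothelial claudin Cldn5 was at 0 in all of them, while Tie1, an endothelial receptor, was present in 14. Within the 72, the 67 cells with under 3 counts of Lum, Col1a1 and Pdgfra together held 834 counts of Thbs1 (thrombospondin 1) in 56 cells and 258 of Emcn (endomucin) in 46, where the 16 held 72 of Thbs1 in 10 cells and 15 of Emcn in 7. Cldn5 was low in the 67 cells too, with 59 counts in 13 of them, and Tie1 gave 419 counts in 66. Gsn gave 159 counts in 51 of the 67 cells, Prg4 gave 3 counts, Dpt 1 and Col14a1 4, at a median of 7761 counts per cell in the 67 and 5143 in the 16.

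What accompanied Dcn in single cells was then measured at equal depth. Each gate cell was thinned at random to 2836 counts, 81 shallower cells were left out (35, 13, 13 and 20 per library), and the 739 that remained were classed as Dcn-high (3 or more thinned Dcn counts, 116 cells), Dcn 1 to 2 (132 cells) or Dcn-0 (491 cells). Dcn-high cells made up 14.6%, 15.2%, 11.0% and 19.6% of the thinned cells of the 4 libraries. Among them, 27 of 116 (23.3%, 95% exact binomial interval 15.9% to 32.0%) had a thinned count of Lum, Col1a1 or Pdgfra. This joint share was not computed for Dcn-0 cells. Taken singly and pooled over the libraries, Lum had a thinned count in 1.43% of Dcn-0 and 19.8% of Dcn-high cells. Col1a1 gave 3.46% and 8.62%, and Pdgfra 1.02% and 4.31%. Without the cells of little Cdh5 and Vwf the joint share of Dcn-high cells was 12 of 100 (12%, 6.36% to 20.02%), a lower share that follows from the choice of those cells, which were seen to hold most of the Lum and Col1a1 counts.

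In the cells with 3 or more Cdh5 and Vwf counts, Lum had a thinned count in 1.47% of 476 Dcn-0 cells (95% exact binomial interval 0.593% to 3.01%), 2.29% of 131 with 1 to 2 Dcn counts and 8% of 100 Dcn-high cells (3.52% to 15.2%). Col6a3 gave 3.57%, 3.05% and 9%. Col1a1 gave 2.94%, 0.763% and 3%, and Pdgfra 1.05%, 2.29% and 2%. This set of cells was cut after the cells it removes were seen to hold 60.9% of the Col1a1 counts. Over the whole gate the shares of Lum, Col1a1 and Pdgfra are those given above. Sfrp2 gave 9.87%, 13.7% and 31%, Col3a1 14.3%, 26.7% and 28%, and Col1a2 43.9%, 57.3% and 66%. Bgn was present in 98.9%, 100% and 100%, a share with no room to rise. These shares pool the cells of 4 libraries, which are not replicates, and 41 of the 100 Dcn-high cells came from the library labelled Jag1 ECWT replicate 2, so they are a description. Within single libraries the intervals of Dcn-0 and Dcn-high cells overlap in 4 of 4 for Lum, Col3a1 and Col1a2 and in 3 of 4 for Sfrp2.

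**Figure D3:**
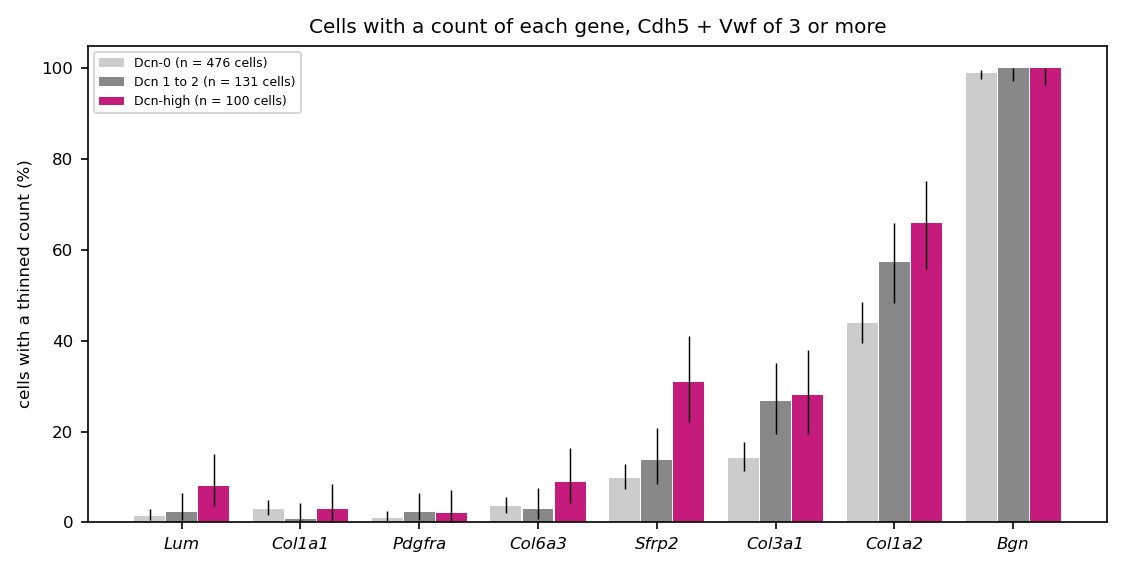
Percent of cells with at least 1 thinned count of each gene among gate cells with 3 or more Cdh5 and Vwf counts, by Dcn class, pooled over the 4 libraries. Error bars are 95% exact binomial intervals and cover counting error only. Sfrp2 lies at 9.87% in Dcn-0 and 31% in Dcn-high cells, and Col1a1 at 2.94% and 3%. Over all gate cells, not drawn, Sfrp2 was at 9.78% and 30.2% and Col1a1 at 3.46% and 8.62%. The cut on Cdh5 and Vwf was chosen after seeing the data.

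The complete counts of Dcn-high and Dcn-0 cells were summed per library and compared by edgeR with library as a block. Dcn itself set the classes and was not tested, and Sfrp2, Thbs1 and Gdf6 were known from earlier results of these data to accompany it, so their differences are a description and carry no p. Of 6263 genes tested, 157 passed an adjusted p of 0.05 (2.51%), with 82 higher (1.31%) and 75 lower (1.2%) in Dcn-high cells. Of the 8 other members 7 passed the filter on low counts, and 6 were called higher. The filter asked for 22.8 CPM in 4 of the 8 sums. Lum and Col6a3 reached it in the Dcn-high cells alone (4 libraries against 0), so they had to differ, their differences are given without a p, and the count of 6, which also holds Sfrp2, is a description that is not weighed against the 2.51%. Pdgfra, with 39 counts in the gate, was too low to be tested.

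Lum differed most. It stood at 201, 804, 699 and 75.3 CPM in Dcn-high cells and at 0, 8.73, 5.18 and 4.78 CPM in Dcn-0 cells, so the classes do not overlap (fitted log2 difference 6.36 ± 0.32 SE). Because Lum is at 0 in the Dcn-0 cells of 1 library, this fitted value depends on the small count that edgeR adds. In the cells with 3 or more Cdh5 and Vwf counts, Lum fell to 22.9, 306, 163 and 24.8 CPM in Dcn-high cells against 0, 9.05, 5.32 and 4.88 CPM, still higher in 4 of 4 libraries, but from 3, 69, 15 and 6 counts, and there it did not pass the filter for a test.

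Sfrp2 was found at 1333, 258, 764 and 785 CPM in Dcn-high cells and at 70.7, 25.3, 10.4 and 72.8 CPM in Dcn-0 cells, with no overlap (log2 difference 4.01 ± 0.24 SE). The Dcn-high values come from 186, 77, 83 and 198 counts, and 1 cell held 148 of the 855 Sfrp2 counts of the gate. With Cdh5 and Vwf of 3 or more Sfrp2 stood at 1349, 306, 576 and 803 CPM against 68.3, 20.8, 10.6 and 74.4 CPM (4.07 ± 0.20 SE). That cut was chosen after the cells it removes were seen to hold 70.2% of the Lum and 7.25% of the Sfrp2 counts, so the lower level of Lum after it is no result.

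Of the fibrillar collagen genes, the members Col1a2, Col1a1 and Col3a1 were also called higher in Dcn-high cells. Col1a2 stood at 767, 1182, 515 and 745 CPM in Dcn-high cells against 285, 327, 248.7 and 385 CPM (log2 difference 1.34 ± 0.15 SE, edgeR adjusted p = 6.32e-06). Its partner chain Col1a1 rose by 2.26 ± 0.42 SE (adjusted p = 0.00323), from 21.5, 33.2, 15.5 and 27.5 CPM to 143, 258, 138 and 7.93 CPM, and was lower, not higher, in the Dcn-high cells of the library labelled Jag1 ECWT replicate 2. Without the library labelled Jag1 ECKO replicate 1 its adjusted p was 0.0573, and without Jag1 ECKO replicate 2 it was 0.167. Col3a1 rose by 1.08 ± 0.19 SE (adjusted p = 0.00136), from 117, 140, 17.3 and 162 CPM to 280, 278, 73.6 and 293 CPM. Without library as a block its adjusted p was 0.426. With the cells of 3 or more Myh11 and Cnn1 counts left out, a choice made after seeing the data, Col1a1 did not pass the filter for a test, Col3a1 was at 1.71 ± 0.22 SE (adjusted p = 4.63e-05) and Col1a2 at 1.56 ± 0.17 SE (adjusted p = 7.68e-06).

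Of 5919 genes tested with the cells of little Cdh5 and Vwf set aside, 154 were called (2.6%), 81 higher (1.37%) and 73 lower (1.23%). Col1a2 kept a difference of 1.09 ± 0.14 SE (edgeR adjusted p = 5.76e-07) and Col3a1 one of 0.91 ± 0.22 SE (adjusted p = 0.00882). Col1a1 stood at 7.62, 79.9, 0 and 8.28 CPM in Dcn-high cells, from 1, 18, 0 and 2 counts, against 12.7, 16.3, 16.0 and 23.2 CPM in Dcn-0 cells. These counts are too few for an order, the gene did not pass the filter for a test, and the difference between the 2 chains of type I collagen was not tested.

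Col6a3 stood at 35.8, 134, 64.4 and 39.6 CPM in Dcn-high cells of the whole gate and at 12.3, 17.5, 17.3 and 19.1 CPM in Dcn-0 cells, a log2 difference of 2.02 ± 0.38 SE, and of 1.41 without the library labelled Jag1 ECKO replicate 2. With Cdh5 and Vwf of 3 or more Col6a3 stood at 15.2, 93.3, 65.2 and 37.3 CPM against 9.53, 13.6, 17.7 and 18.3 CPM. These Dcn-high values come from 2, 21, 6 and 9 counts, and the gene did not pass the filter for a test there. Bgn was at 4265, 6008, 4251 and 4805 CPM in Dcn-high cells and at 3957, 4914, 4181 and 4481 CPM in Dcn-0 cells. Its log2 difference of 0.12 did not pass the test (adjusted p = 0.740).

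**Figure D4:**
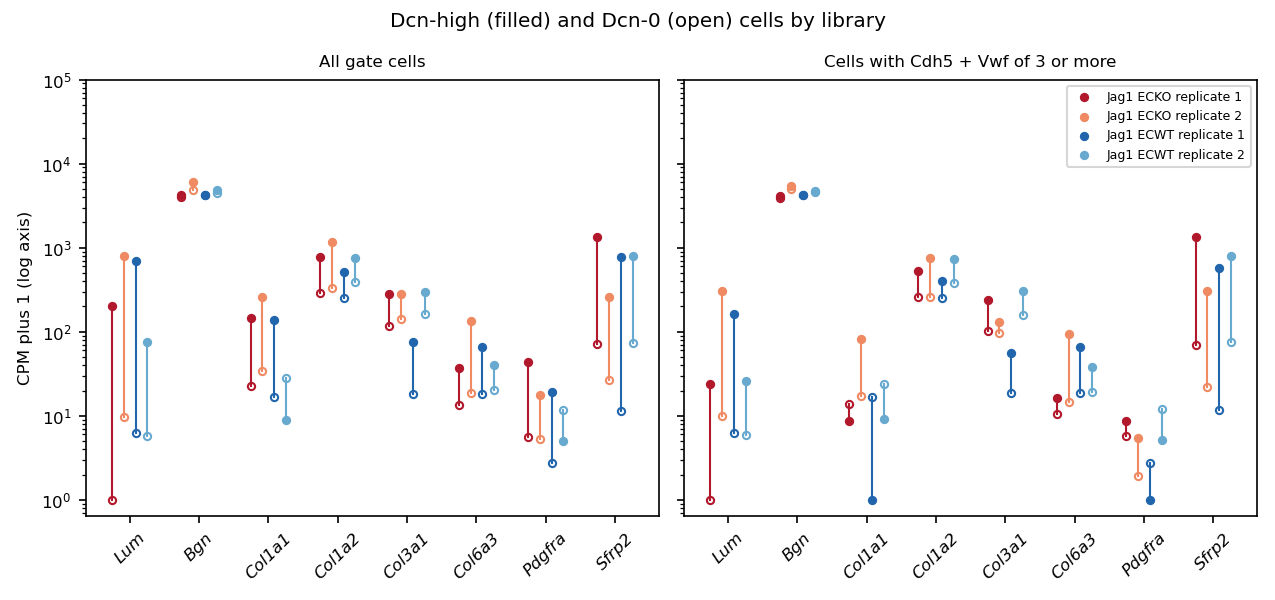
CPM plus 1 (log axis) of the 8 other genes in Dcn-high cells (filled) and Dcn-0 cells (open) of each library, over all gate cells (left) and over those with 3 or more Cdh5 and Vwf counts (right). Lines join the 2 classes of 1 library. Lum, Sfrp2, Col1a2, Col3a1 and Col6a3 are higher in the Dcn-high cells of every library in both panels, Lum and Col6a3 from few counts on the right, and Bgn is nearly level in both.

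Other genes of the same families were read from lists of related genes. Of 18 small leucine-rich proteoglycans 7 were tested, and Lum and Prelp were called higher. Over all genes 1.31% were called higher, and Lum passed the filter on low counts through the Dcn-high cells alone, so the count is not read against that share. Prelp, which anchors basement membrane to collagen, stood at 308, 660, 350 and 174 CPM in Dcn-high cells against 49.2, 55.9, 36.3 and 64.5 CPM (log2 difference 2.76 ± 0.26 SE, edgeR adjusted p = 8.27e-07), and kept 2.30 ± 0.23 SE with Cdh5 and Vwf of 3 or more. The median over the 7 was 0.59, beside 0.00252 over all genes tested. Of 37 genes for collagen chains and their processing, 23 were tested, and 5 were called higher and 0 lower (median 0.64), beside 1.31% higher over all genes. Besides Col1a1, Col1a2, Col3a1 and Col6a3 the fifth was Pcolce, an enhancer of procollagen cleavage (log2 difference 2.13 ± 0.38 SE), which like Col6a3 passed the filter through the Dcn-high cells alone, so this count too is a description.

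A wider list of fibroblast genes was higher in sum, while few of its members were called. Of its 41 genes 38 were in the table, and they summed to 8078, 8259, 8355 and 9665 CPM in Dcn-high cells against 6110, 6336, 7157 and 7460 CPM in Dcn-0 cells, higher in 4 of 4 libraries. Of 15 tested, Gsn (1.74 ± 0.23 SE, edgeR adjusted p = 7.15e-05) and Pcolce were called higher and 0 lower, with a median of 0.21, beside 1.31% higher over all genes, and the call of Pcolce was again fixed by the filter. In the cells with 3 or more Cdh5 and Vwf counts, 12 were tested and Gsn alone passed, at 0.65 ± 0.17 SE (adjusted p = 0.0198). Of all genes 2.6% passed there. The cells set aside there were chosen after they were seen to hold most of the Lum and Col1a1 counts, so a smaller difference is no result. Of 12 mesenchymal transition genes, 9 were tested over the whole gate and 0 passed by edgeR, among them Snai2 (0.53, adjusted p = 0.726) and Twist1 (0.50, adjusted p = 0.211). Over all genes 2.51% passed. Without the cells of little Cdh5 and Vwf and those with Lum, Col1a1 and Pdgfra, 1 of 8 tested was called higher, Tagln, a gene of smooth muscle (1.46 ± 0.38 SE, adjusted p = 0.0360), and 7 of 8 were positive. Over all 5761 genes tested there, 1.27% were called higher and 2898 were positive.

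Among ligands and receptors of decorin, 11 of 20 were tested and 4 were called higher (1.31% of all genes tested were), of which Thbs1 was known beforehand. They were Thbs1 (log2 difference 1.92 ± 0.19 SE), the endocytic receptor Lrp1 (1.90 ± 0.38 SE, edgeR adjusted p = 0.00561), Tgfb2 (1.36 ± 0.32 SE, adjusted p = 0.0228) and Ctgf, a matricellular growth factor regulator (1.35 ± 0.23 SE, adjusted p = 0.00117). With Cdh5 and Vwf of 3 or more, Thbs1 was at 1.95 ± 0.15 SE and Ctgf passed (1.23 ± 0.26 SE), whereas Lrp1 gave 0.80 (adjusted p = 0.412) and Tgfb2 1.12 (adjusted p = 0.130). Of the secreted Frizzled-related and WNT genes 9 of 24 were tested, and beside Sfrp2, Frzb (1.00 ± 0.19 SE, adjusted p = 0.00448) and Dkk3 (1.88 ± 0.40 SE, adjusted p = 0.00920) rose, of which Dkk3 lost the call with Cdh5 and Vwf of 3 or more (1.08, adjusted p = 0.0785). Over all genes 1.31% rose. Of 7 PDGF ligands and receptors 3 were tested and 0 passed, with Pdgfrb at 0.72 (adjusted p = 0.143), beside 2.51% over all genes.

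Endothelial markers were present in Dcn-high cells at a lower sum. The 18 genes summed to 10090.5 to 13189 CPM over the libraries in Dcn-high cells and to 14633 to 16566 CPM in Dcn-0 cells. Of 16 tested, 7 fell (1.2% of all genes tested did), among them Cldn5 (log2 difference -1.75 ± 0.19 SE, edgeR adjusted p = 3.89e-06), the VEGF receptor Flt1 (-1.65 ± 0.34 SE, adjusted p = 0.00751), Vwf (-0.64) and Pecam1 (-0.42). The phosphatase Ptprb (-0.68, adjusted p = 0.000364), the angiopoietin receptor Tek (-0.68, adjusted p = 0.00486) and Egfl7 (-0.45, adjusted p = 0.0370) also fell, and Egfl7 was not among the 6 that fell with Cdh5 and Vwf of 3 or more. Emcn (1.68 ± 0.18 SE, adjusted p = 3.91e-06) and Eng, the TGF-β coreceptor endoglin (0.64 ± 0.12 SE, adjusted p = 0.00411), rose. With Cdh5 and Vwf of 3 or more, Cldn5 was at -1.52 ± 0.17 SE and Emcn at 1.82 ± 0.17 SE. Pecam1, Vwf and Cdh5 themselves admitted cells to the gates, so their values are tied to the rule.

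Markers of other cell types were followed in the same classes. The 12 VSMC markers summed to 700 to 1251 CPM in Dcn-high cells and to 261 to 2306 CPM in Dcn-0 cells, and of 6 tested Myh11 fell (-2.43 ± 0.25 SE, edgeR adjusted p = 3.12e-06) and 0 rose. Over all genes 1.2% fell and 1.31% rose. With Cdh5 and Vwf of 3 or more Myh11 was at -1.81 ± 0.28 SE (adjusted p = 2.05e-05). Without the cells of 3 or more Lum, Col1a1 and Pdgfra counts, and with Cdh5 and Vwf of 3 or more, the difference of Myh11 was -0.19 (adjusted p = 0.951), Tagln was higher at 1.46 (adjusted p = 0.0360) and Acta2 stood at 0.89 (adjusted p = 0.0855). Leukocyte markers summed to 0 to 15.9 CPM and adipocyte markers to 0 to 7.93 CPM, erythroid markers to 0 to 98.4 CPM, pericyte markers to 74.3 to 194 CPM and Schwann cell markers to 28.7 to 82.8 CPM over both classes. Dissociation response genes summed to 1411 to 3240 CPM in Dcn-high cells and to 1543 to 2885 CPM in Dcn-0 cells, and 0 of 14 tested passed, with Zfp36, which destabilises mRNA, at 0.84 (edgeR adjusted p = 0.0597). Over all genes 2.51% passed. With Cdh5 and Vwf of 3 or more, 1 of 13 passed, Zfp36 at 0.81 ± 0.22 SE (adjusted p = 0.0293), where 1.37% of all genes were called higher. The part of these markers in the differences above was not tested, and doublets were not called.

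The genes with the largest differences, 10 in each direction among those past the threshold with the same direction in every library, began with Lum, Sfrp2, Meox1, Gdf6, Adam33, Prelp, Ahsg, Tyro3, Pcolce and Heph. Gdf6, a growth factor of the BMP family, stood at 115, 53.6, 202 and 131 CPM in Dcn-high cells against 18.5, 9.60, 13.8 and 10.7 CPM. Its log2 difference was 3.12 ± 0.33 SE, and 3.12 ± 0.34 SE with Cdh5 and Vwf of 3 or more. Meox1, a homeobox factor, differed by 3.62 ± 0.40 SE over the whole gate and, like Lum and Pcolce, no longer passed the filter for a test with Cdh5 and Vwf of 3 or more. The receptor kinase Tyro3 (2.43 ± 0.42 SE) and Ahsg (2.70 ± 0.22 SE) passed in both sets of cells. The metalloprotease Adam33 and the ferroxidase Heph differed by 3.05 ± 0.46 SE and 2.11 ± 0.38 SE over the whole gate. Of the 10, Lum, Meox1, Gdf6, Adam33, Pcolce and Heph passed the filter on low counts through the Dcn-high cells alone, so they had to differ, and both their call and their size are a description. Tyro3 reached the filter in the Dcn-high cells of 4 libraries and the Dcn-0 cells of 1, so its call is a description too.

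The lower genes were led by the adrenergic receptor Adra2a, at 35.8, 3.35, 0 and 11.9 CPM in Dcn-high cells against 198, 96.0, 128 and 83.6 CPM (log2 difference -3.33 ± 0.39 SE). Hoxb7, Stmn2, Fgfr3, Inpp4a, Myh11, Lrg1, Sparcl1, Tnfrsf10b and Igf2 followed, between -2.66 and -1.95. Hoxb7, Inpp4a and Tnfrsf10b passed the filter through the Dcn-0 cells alone. Adra2a, Fgfr3 and Sparcl1 reached its 22.8 CPM in the Dcn-0 cells of 4 libraries and the Dcn-high cells of 1, and Lrg1 in 3 and 1. Their entry to the test thus rested largely on the class where they are high, and their calls are a description. Without the library labelled Jag1 ECWT replicate 2, Lrg1 (adjusted p = 0.0515), Sparcl1 (0.0561) and the endothelial Flt1 (0.0691) lost the call. So did Lrg1 without Jag1 ECKO replicate 2 (0.0502), Sparcl1 and Flt1 without Jag1 ECKO replicate 1 (0.0791 and 0.0569), and Sparcl1 without Jag1 ECWT replicate 1 (0.0533). Stmn2, a tubulin-binding protein, fell from 178, 224, 235 and 229 CPM to 93.2, 30.1, 9.20 and 19.8 CPM (-2.61 ± 0.33 SE, adjusted p = 3.07e-05). With Cdh5 and Vwf of 3 or more and without the cells holding Lum, Col1a1 and Pdgfra, 128 of 5761 genes were called (2.22%), 73 higher (1.27%) and 55 lower (0.955%). These cells are a subset of the gate cells compared before, so the overlap of the calls (104 genes, 66.2% of the 157 and 81.2% of the 128) is a description.

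Rank correlation with Dcn over the thinned gate cells was computed within each library (164, 223, 127 and 225 cells) for 5199 genes seen in at least 5% of thinned cells of every library, and is given as a description, since the cells of a library share its preparation. The 10 genes most like Dcn by the mean of the 4 rho were Apoe (0.31), Thbs1 (0.30), Igfbp7 (0.26), Ahsg (0.26), Col1a2 (0.25), Bmp4 (0.24), Pam (0.24), Sfrp2 (0.22), Smoc1 (0.22) and Tm4sf1 (0.22). All are weak. Col3a1 was 23rd (0.18) and Bgn 453rd (0.06). Lum, too rare to be ranked, had a mean rho of 0.28 over the gate and 0.08 in the cells with 3 or more Cdh5 and Vwf counts and fewer than 3 of Lum, Col1a1 and Pdgfra, a set that its own counts help to define. At the other end, Cldn5 was last at -0.28 and Pecam1 5195th at -0.23.

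**Figure D5:**
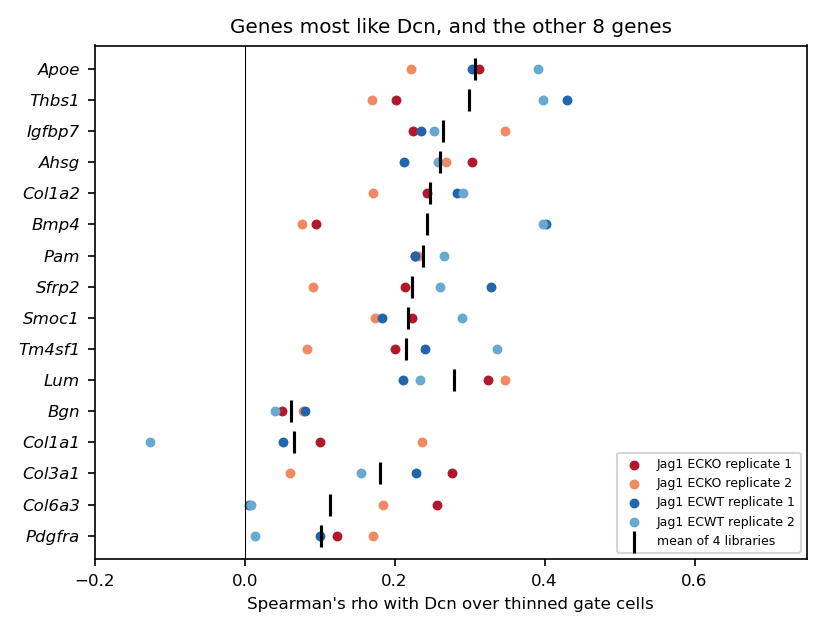
Spearman's rho with Dcn over thinned gate cells in each library (coloured points) and their mean (black bar), for the 10 genes most like Dcn and for the other members. Col1a2 and Sfrp2 are both among the 10, with means of 0.25 and 0.22, and Bgn lies near 0 at 0.06.

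Between the labels, none of the members passed the test. Summed gate counts of the 2 libraries labelled Jag1 ECKO and the 2 labelled Jag1 ECWT were compared by edgeR over 9696 genes, of which 0 were called (0%), with 459 at an unadjusted p under 0.05 and 2 called by DESeq2. Dcn stood at 846 ± 491 CPM and 881 ± 198 CPM (SD, n = 2 each), Lum at 85.9 ± 79.6 and 61.7 ± 62.5 CPM, Bgn at 4581 ± 760 and 4401 ± 211 CPM, and Sfrp2 at 168 ± 139 and 191 ± 50.6 CPM. The libraries of the 2 labels overlapped for each of these 4 genes.

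Col1a1 was the 1 member with both libraries labelled Jag1 ECKO above both labelled Jag1 ECWT. It stood at 35.7 and 66.3 CPM against 29.1 and 19.5 CPM (log2 difference 1.18 ± 0.38 SE, edgeR adjusted p = 0.910). How many of all genes separate in this way was not counted, so this is a description. In the 778 cells with 3 or more Cdh5 and Vwf counts Col1a1 stood at 10.6 and 23.5 CPM against 10.9 and 15.9 CPM, and the labels overlapped. Col1a2 (0.08), Col3a1 (0.18) and Col6a3 (0.46) had adjusted p-values of 0.927 or more. VSMC markers were positive in 10 of 10 tested between the labels, with a median of 1.46 and 0 called, and dissociation response genes in 16 of 16, with a median of 0.59 and 0 called. Over all 9696 genes tested 4825 were positive, with a median of -0.0016. Genes of a list can be carried by the same cells, so these counts are a description. The part of either list in the values of Col1a1 was not tested. Several values moved when 1 library was left out, which leaves 1 library in that label, assumed in the fit to vary like the 2 of the other label. Without the library labelled Jag1 ECKO replicate 2, Dcn was at -0.84, and without Jag1 ECKO replicate 1, Lum was at 1.45, Col1a1 at 1.57 and Sfrp2 at -1.39. No p is given for these, since the spread comes from 1 label only. The smallest p of an exact permutation test over these 4 libraries is 0.333. An interaction term between label and Dcn class was tested for the 7 members past the filter, and each had an edgeR adjusted p of 0.997. Over 6263 genes, 0 passed for this term and 231 had an unadjusted p under 0.05.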

How the data were processed

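Single cells were processed with SORT-seq, a plate-based 3′ method that counts unique molecular identifiers (UMIs). STAR and the mouse build GRCm38 are named in the submitters' processing notes. What the authors deposited are estimated counts for each gene in each cell, that is, UMI numbers after a correction for chance repeats. The counting tool is not given in the sources used here. With the correction undone, every value lay within 4.1e-12 of a whole number of UMIs. The deposited counts were not normalized and were rounded to whole numbers here.

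Cells with more than 1200 genes and at least 3 counts of Pecam1, Cdh5 and Vwf were kept. Members and gene lists were chosen with earlier results of these data known, and so were the tests. CPM is 1 gene's counts over the summed counts of the cells. Intervals are exact binomial (Clopper-Pearson) and cover counting error only. Counts summed per library, or per library and Dcn class, were tested with edgeR 4.0.16 in R 4.3.3 (quasi-likelihood test after TMM scaling and the filterByExpr filter, with p-values adjusted over all genes tested by Benjamini and Hochberg). DESeq2 1.42.0, other gates, depths and thinning draws were alternatives, and the steps were tested on simulated data. Genes named are the 9 members, up to 4 examples with the largest differences per list (and the other called genes of a list, added after their values were seen), the 10 largest differences each way called with 1 direction in every library, and the 10 genes most like Dcn. A few further genes (Jag1, Tie1, Prg4, Dpt, Col14a1 and Emcn, with the counts of cells rich in Dcn) were named after their values were seen. The gate on Cdh5 and Vwf, and the removal of cells with Lum, Col1a1 and Pdgfra from it, were chosen after seeing the data. Well barcodes are reused between plates (324 of 373 occur in 2 or more libraries), so they identify no shared cells. Totals were 903288 to 1849097 deposited counts per library.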

Additional observations from a re-analysis of the deposited data

Results flagged for a closer look

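The 167 cells with 1200 genes or fewer entered none of the comparisons above, and the members were found in them too, above the 3 counts that a true 0 allows. They held 128 Dcn counts in 42 cells, 1243 of Bgn in 160, 98 of Col1a2 in 57, 42 of Col3a1 in 24 and 50 of Sfrp2 in 16. Lum gave 12 counts in 7 cells, Pdgfra 5 in 5, Col1a1 4 in 4 and Col6a3 4 in 3. As a level, Dcn stood at 411 CPM and Bgn at 3992 CPM in these cells. With groups of 2 libraries no test for a library that stands apart was made, and the interaction of label and Dcn class passed the threshold for no member.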

How the results depend on the processing

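The number of genes called between Dcn-high and Dcn-0 cells was 83 with DESeq2, 248 with no filter on low counts, 94 on thinned counts, 66 with no replicate block and 72 to 113 when each library was left out in turn. Lum, Sfrp2, Col1a2, Col3a1, Col1a1, Col6a3 and Bgn stayed positive in every alternative that tested them. Sfrp2 ran from 3.31 to 4.47 and Col1a2, from 1.02 to 1.61, stayed called, whereas Col1a1 and Col3a1 lost the call in 4 and 2 alternatives. The share of Dcn-high cells with Lum, Col1a1 or Pdgfra was 12% with the gate on Cdh5 and Vwf and 18.3% to 29.2% without each library in turn. The summed level of the 9 genes, 6229 ± 766 CPM (SD, n = 4), ranged from 5588 to 6960 CPM and moved by less than its spread, and a comparison with cells at 0 endothelial counts gave no value because there are none.

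Between labels, DESeq2 called 2 genes, no filter on low counts gave 110, and leaving out each library gave 0 to 340. Directions of members turned with the setting, and the cause was not tested. Dcn was 0.0018 with no filter, 0.054 with more than 1500 genes and 0.10 on thinned counts, and Sfrp2 was 0.0020 with more than 1500 genes. With at least 6 endothelial counts, on thinned counts, with the gate on Cdh5 and Vwf and without Lum, Col1a1 and Pdgfra cells, Col1a2 was -0.083, -0.073, -0.22 and -0.31 and Col3a1 -0.17, -0.12, -0.21 and -0.41. Without Lum, Col1a1 and Pdgfra cells, Lum was -0.071 and Col6a3 -0.74. Without each library in turn, Dcn ran from -0.84 to 0.52, Lum from -0.92 to 2.34, Bgn from -0.16 to 0.29, Col1a2 from -0.28 to 0.60, Col3a1 from -0.40 to 1.29, Col6a3 from -0.18 to 0.85 and Sfrp2 from -1.39 to 0.42. No paired analysis was possible because the replicate numbers of the labels mark no shared animal or batch. Pdgfra had the fewest counts of the members, 39 in 820 cells, and the part of depth in this was not tested.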
